A study of Homo sapiens with 16 samples.

Results

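The histone gene cluster and the major histocompatibility complex (MHC) lie side by side on the short arm of chromosome 6, and the hg19 build also carries 7 alternative assemblies of the MHC, the haplotype contigs. The peaks described here start between 25 and 34 Mb of chromosome 6, or lie on one of these contigs. They were taken by position only, from a region chosen with earlier results of these data known. They number 984 of the 31050 peaks in 4 deposited lists. The histone cluster (25 to 28.5 Mb) held 126 H3K4me3 peaks and 0, 4 and 2 BG4 peaks in siControl, siBAZ2A and siBAZ2B. The MHC (28.5 to 34 Mb) held 111 H3K4me3 peaks and 14, 10 and 14 BG4 peaks. The contigs held 526 H3K4me3 peaks and 57, 50 and 70 BG4 peaks.

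The study used A549 cells, an established lung carcinoma line, transfected with siRNA at 71 nM for 48 hours. The siRNA was a control (siControl) or was directed at BAZ2A (siBAZ2A) or at BAZ2B (siBAZ2B), which encode related subunits of chromatin remodelling complexes. CUT&Tag, in which an antibody guides a transposase to cut nearby chromatin, was done in all 3 conditions with BG4, an antibody fragment that binds G-quadruplex (G4) DNA, and in siControl cells also with an antibody to H3K4me3, the histone mark of active promoters. Each of the 4 groups had 4 replicates and Drosophila chromatin was added to the reactions. The deposited list of a group merges its replicates, so the values below carry no replicate error and the conditions could not be set against each other in a test. Nothing in the labels says whether the replicates are separate cultures. The depletion of either protein was not analysed here.

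A G4 forms where 4 short runs of guanine lie close together on a strand, and in cells such structures are mostly found at open, active promoters. The histone cluster holds most of the genes for the replication-dependent histones, the H1 linker and the H2A, H2B, H3 and H4 core proteins, which are made in bulk when DNA is copied. They are short genes without introns, many in divergent pairs that share a promoter, and they are interspersed with tRNA, zinc finger and butyrophilin genes. The MHC holds the HLA genes, whose products present peptides to T cells, among complement, cytokine and many housekeeping genes. It varies so much between people that several whole haplotypes were assembled. A stretch of the MHC can therefore be present up to 8 times in hg19, on chromosome 6 and on each contig, and a read from it may match several copies equally well. The sources used here do not give how such reads were placed, so peaks on different copies are not independent observations.

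The sequences of the histone promoters show how few of them hold 4 runs of guanine close together. RefSeq promoters of 300 bases (250 before to 50 after the gene's start, build GRCh38.p14) were found for 50 of the 55 histone genes of chromosome 6. The motif searched was 4 runs of at least 3 G, parted by 1 to 7 bases of any kind, on both strands, so that it also reads as runs of C. It was present in 3 of the 54 histone promoters (5.56%, 95% Wilson interval 1.91 to 15.1), which cover 42 separate stretches of DNA, against 25% of all 35116 promoters in the table (24.5 to 25.5). The 3 belong to H1-1, a linker histone gene, and to H4C6 and H4C8, which encode the core histone H4. They are shown first, because they are the exceptions, with the matched stretch in capitals. Each is given 5′ to 3′ on the gene's strand, and a match is a description of letters, not a measured structure.

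H1-1 promoter (GRCh38.p14, chr6:26017738-26018037, minus strand):
H1-1: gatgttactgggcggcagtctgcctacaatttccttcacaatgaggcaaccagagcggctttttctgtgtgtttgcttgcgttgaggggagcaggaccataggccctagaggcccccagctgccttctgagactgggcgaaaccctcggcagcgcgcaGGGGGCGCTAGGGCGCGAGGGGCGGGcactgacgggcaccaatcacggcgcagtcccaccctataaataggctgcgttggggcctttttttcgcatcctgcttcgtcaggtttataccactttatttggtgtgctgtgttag

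H4C6 promoter (GRCh38.p14, chr6:26240143-26240442, plus strand):
H4C6: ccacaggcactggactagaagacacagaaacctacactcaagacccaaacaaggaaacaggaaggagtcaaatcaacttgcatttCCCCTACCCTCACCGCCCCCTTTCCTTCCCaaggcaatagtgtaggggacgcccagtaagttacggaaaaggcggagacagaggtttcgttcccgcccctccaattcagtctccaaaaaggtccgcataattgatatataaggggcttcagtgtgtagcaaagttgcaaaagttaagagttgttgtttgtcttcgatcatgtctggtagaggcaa

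H4C8 promoter (GRCh38.p14, chr6:26285485-26285784, minus strand):
H4C8: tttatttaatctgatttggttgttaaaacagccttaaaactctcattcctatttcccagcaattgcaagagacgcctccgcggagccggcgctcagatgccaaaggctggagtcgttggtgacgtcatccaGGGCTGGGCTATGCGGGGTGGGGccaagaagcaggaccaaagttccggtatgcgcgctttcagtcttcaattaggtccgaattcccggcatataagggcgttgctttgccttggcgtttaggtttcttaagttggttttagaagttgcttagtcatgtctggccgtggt

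The H1-1 match spans bases 159 to 184 of its window and the H4C8 match bases 132 to 154, both as runs of G on the gene's strand. The H4C6 match, at bases 86 to 115, reads as runs of C, so its G runs are on the opposite strand. None of the 11 H2A, 17 H2B or 10 H3 promoters held the motif. The next 3 sequences are of that kind, the first H2B, H3 and H4 genes in chromosomal order that had a promoter in the table and no match, with every run of 3 or more G or C in capitals. The H2BC1 window shares 286 of its bases with that of the divergent gene H2AC1, read from the other strand.

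H2BC1 promoter (GRCh38.p14, chr6:25726527-25726826, plus strand):
H2BC1: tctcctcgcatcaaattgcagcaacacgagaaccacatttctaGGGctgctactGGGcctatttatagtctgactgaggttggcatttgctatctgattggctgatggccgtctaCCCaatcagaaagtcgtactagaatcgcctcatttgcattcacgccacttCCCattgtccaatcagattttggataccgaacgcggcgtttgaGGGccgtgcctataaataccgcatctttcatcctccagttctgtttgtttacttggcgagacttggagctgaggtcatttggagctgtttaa

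H3C1 promoter (GRCh38.p14, chr6:26020201-26020500, plus strand):
H3C1: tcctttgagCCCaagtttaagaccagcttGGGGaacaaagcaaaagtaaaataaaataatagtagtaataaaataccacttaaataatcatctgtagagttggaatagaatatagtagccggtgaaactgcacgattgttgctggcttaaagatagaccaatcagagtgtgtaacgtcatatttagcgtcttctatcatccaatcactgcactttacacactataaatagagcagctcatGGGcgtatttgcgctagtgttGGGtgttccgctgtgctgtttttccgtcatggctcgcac

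H4C2 promoter (GRCh38.p14, chr6:26027234-26027533, minus strand):
H4C2: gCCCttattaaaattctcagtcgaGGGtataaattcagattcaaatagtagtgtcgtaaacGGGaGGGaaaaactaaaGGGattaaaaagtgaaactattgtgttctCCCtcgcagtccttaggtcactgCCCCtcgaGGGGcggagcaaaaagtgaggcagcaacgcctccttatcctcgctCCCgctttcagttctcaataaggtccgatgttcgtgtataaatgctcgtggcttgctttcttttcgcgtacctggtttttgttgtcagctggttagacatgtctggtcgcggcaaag

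H2BC1 had 5 such runs, H3C1 had 4 and H4C2 had 9. The histone promoters had a median of 5 runs (range 1 to 14) and a median G+C content of 42.3% (36.3 to 58), where all promoters had a median of 13 runs and 58.7% G+C. The 34 other genes between the first and the last histone gene (H2AC1 to H2BC17) that had a promoter in the table were alike in this respect. Their motif share was 2 of 39 promoters (5.13%, 1.42 to 16.9), and both belong to long noncoding or uncharacterised genes (LINC02980 and LOC124901287). The table places 98 of its 465 tRNA genes in the same interval.

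Promoters of the MHC were near the share of all promoters. From HLA-F to HLA-DPB1 the motif was present in 55 of 201 promoters (27.4%, 21.7 to 33.9), with a median G+C content of 59%. Among the 22 promoters of the HLA genes themselves it was present in 2, those of HLA-DMA and HLA-DPA1. For contrast with the histone promoters, HLA-DPA1, which encodes a class II antigen-presenting chain, and TAP1, which encodes a subunit of the peptide transporter that loads class I molecules, are shown with the match in capitals.

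HLA-DPA1 promoter (GRCh38.p14, chr6:33080699-33080998, minus strand):
HLA-DPA1: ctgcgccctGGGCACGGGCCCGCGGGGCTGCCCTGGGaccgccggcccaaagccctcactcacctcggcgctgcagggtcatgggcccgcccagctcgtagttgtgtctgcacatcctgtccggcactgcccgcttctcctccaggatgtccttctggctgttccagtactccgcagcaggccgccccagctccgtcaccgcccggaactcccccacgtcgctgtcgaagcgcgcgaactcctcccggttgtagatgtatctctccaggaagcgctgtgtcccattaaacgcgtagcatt

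TAP1 promoter (GRCh38.p14, chr6:32853655-32853954, minus strand):
TAP1: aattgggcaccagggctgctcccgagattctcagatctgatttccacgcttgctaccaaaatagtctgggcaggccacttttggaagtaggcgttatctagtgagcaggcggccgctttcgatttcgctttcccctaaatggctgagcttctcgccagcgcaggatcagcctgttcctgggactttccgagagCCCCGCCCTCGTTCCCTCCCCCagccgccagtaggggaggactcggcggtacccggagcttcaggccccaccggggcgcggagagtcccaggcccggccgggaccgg

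The HLA-DPA1 match reads as runs of G at bases 10 to 37 of its window, and the TAP1 match as runs of C at bases 194 to 215. Both windows were taken at a start that the RefSeq table lists for the gene. Whether the HLA-DPA1 window, and so its match, lies within the body of a neighbouring HLA gene was not examined. That window is therefore not read as upstream sequence of HLA-DPA1. The promoters are in GRCh38.p14 and the peaks in hg19, so no peak was assigned to a gene, and the loci below are named by their hg19 position. Whether the low motif content bears on the peak counts below was not tested.

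**Figure D1:**
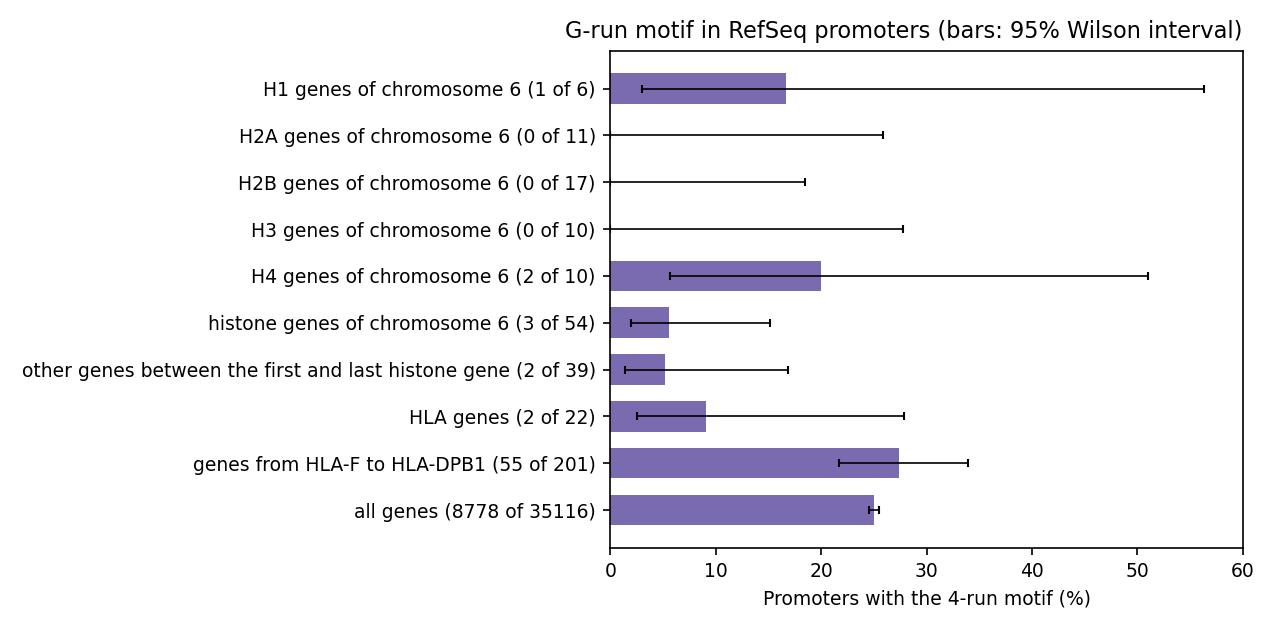
Share of RefSeq promoters (x axis, percent) that hold the motif of 4 G runs on either strand, by gene set (y axis, with the number of promoters), with 95% Wilson intervals over promoters. Histone promoters stand at 5.56% and those from HLA-F to HLA-DPB1 at 27.4%, against 25% of all promoters.

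In the histone cluster, H3K4me3 peaks were dense and G4 peaks nearly absent. The 126 H3K4me3 peaks amount to 36 per Mb, and the median gap between neighbours was 13.3 kb, against 17.9 kb in the MHC and 93.0 kb on the rest of chromosome 6. Their fold enrichment, the peak caller's own value for each peak, had a median of 7.87 (range 2.16 to 16.7), close to the 8.03 of the whole list. They were narrower, with a median of 958 bp against 1125 bp. Of these 126 marked regions, 0 carried a siControl BG4 peak, a count that allows a share of up to 2.38%, where 16.0% of the whole H3K4me3 list carried one. The siBAZ2A list had a peak on 4 of them (3.17%, 1.24 to 7.88, against 21.1% of the whole list), and the siBAZ2B list on 2 (1.59%, 0.436 to 5.60, against 23.4%). With the 3 lists joined, 5 of 126 carried a BG4 peak (3.97%, 1.71 to 8.95), against 29.4% of the whole list. H3K4me3 was mapped in siControl cells only, so the knockdown peaks were set on siControl H3K4me3. Intervals and limits here cover counting error over peaks only.

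**Figure D2:**
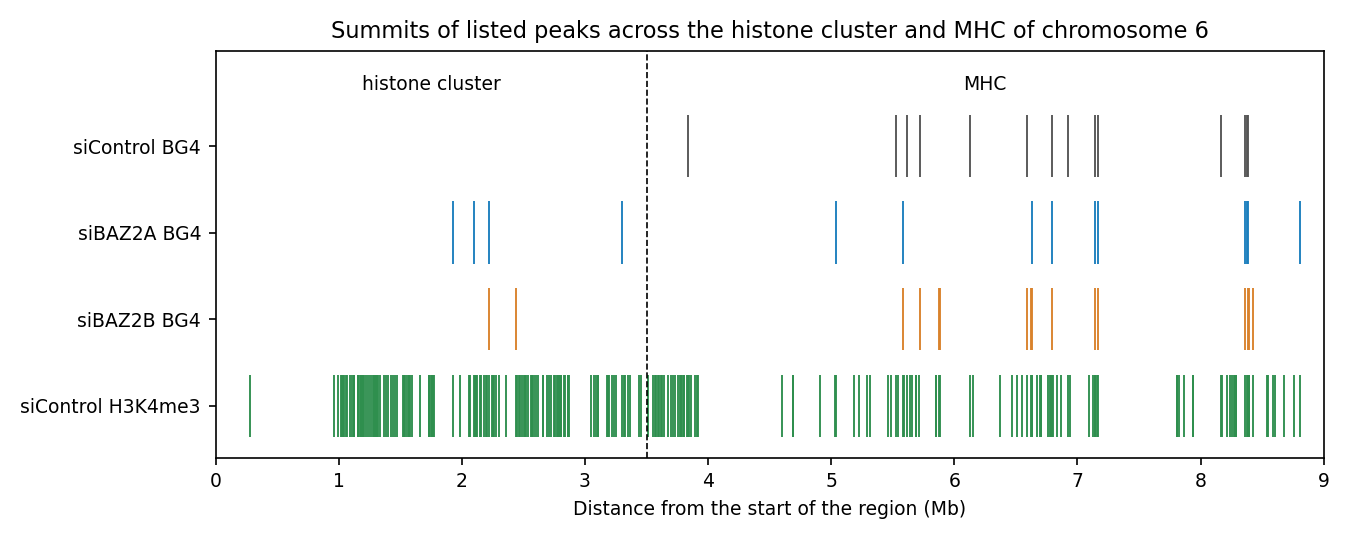
Position of each listed peak summit (vertical ticks) as distance in Mb from the start of the region on chromosome 6, 1 row per list, with the border of histone cluster and MHC dashed. The H3K4me3 row is densest in the histone cluster, where siControl BG4 has no tick and siBAZ2A and siBAZ2B have 4 and 2.

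The share with BG4 was also low when H3K4me3 peaks were compared in 3 classes of width. None of the 69 histone cluster peaks in the narrowest 40% of the H3K4me3 list, up to 978 bp wide, carried BG4 in any list (a limit of 4.35%), against 14.8% (14 to 15.7) of peaks that narrow outside the region. In the middle 20% the count was 1 of 30 (3.33%, 0.591 to 16.7) against 28.9% (27.5 to 30.4). In the widest 40% it was 4 of 27 (14.8%, 5.92 to 32.5) against 45.2% (44.1 to 46.4). In each of these 3 classes the interval of the histone cluster, or its limit, lay below that of the peaks outside. In classes of 20% of the list the counts were too small for that in 2 cases. From 305 to 651 bp the count was 0 of 21, a limit of 14.3%, against 11.6% outside, and from 1267 to 1590 bp it was 3 of 13 (23.1%, 8.18 to 50.3) against 41.1%. By strength, 3 of the 27 histone cluster peaks in the highest 20% of the list by fold carried BG4 (11.1%, 3.85 to 28.1), against 30% of such peaks outside the region (28.6 to 31.6). Among the widest 40%, the MHC (26.1%, 12.5 to 46.5) and contigs (27.3%, 20.1 to 35.8) had intervals that overlap that of the histone cluster. In the narrowest 40%, those of the MHC (5.32 to 20.6) and contigs (8.08 to 15.3) lay above its limit. In the middle 20%, the contig interval (13.6 to 28.4) overlapped and that of the MHC (25.6 to 63.2) did not. The rest of chromosome 6 was not split by width.

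Among intervals between neighbouring BG4 peaks, the one with the most H3K4me3 peaks lay in or reached into the histone cluster in each list. Stretches before the first or after the last BG4 peak of a chromosome or contig were not counted. Between the neighbouring siControl BG4 peaks that end and begin at 24.8 and 28.8 Mb (chr6:24775462-28833737), 147 H3K4me3 peaks had no BG4 peak, the highest number among all 3282 intervals between neighbouring siControl peaks. The next highest was 99, on chromosome 3, over 15.9 Mb instead of 4.06 Mb, and the median was 2. The interval of highest number in siBAZ2A was chr6:24775694-26924182, with 55 H3K4me3 peaks in 2.15 Mb, and the runner-up, with 51, was chr6:27219741-28303419. In siBAZ2B it was chr6:27440841-30585143, with 91 H3K4me3 peaks, which reaches from the histone cluster into the MHC, followed by chr6:24721902-27219031 with 69. The first of each list and the runner-up of both knockdown lists thus lay between 24.7 and 30.6 Mb. The intervals ranked first in siBAZ2A and in siBAZ2B do not overlap, because each is broken by that list's own peaks inside the siControl interval.

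Peak numbers gave a view of the data before peaks of a single replicate were dropped. Each list keeps the number that a peak had in the replicate whose coordinates were used, and in all 4 lists the numbers rise with position along chromosome 6. Across the siControl interval of 4.06 Mb at most 19 numbers were unused, so the source replicate had no more than 19 peaks there, and 0 were listed. Between the listed peaks that flank the cluster, siBAZ2A kept 4 of at most 14 numbered peaks and siBAZ2B 2 of at most 12. The H3K4me3 list kept 126 of at most 141. For comparison, the whole lists kept 38.5% of the numbered peaks in siControl, 51.9% in siBAZ2A, 55.0% in siBAZ2B and 92.3% in H3K4me3. Before that filter, too, the source replicates of BG4 had far fewer peaks over the cluster than there were H3K4me3 peaks. BG4 also had fewer numbered peaks over the whole lists. There the numbers ran to 8657 in siControl, 8197 in siBAZ2A and 8847 in siBAZ2B, against 20148 in H3K4me3. How reproducible the dropped peaks were cannot be read from the lists.

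The 6 knockdown peaks of the histone cluster formed 5 loci, all on H3K4me3. Only chr6:27219032-27219740 was in both knockdown lists, with a fold of 7.44 in siBAZ2A, above 58.4% of that list, and of 5.20 in siBAZ2B, above 24.2% of its list. The loci chr6:26924183-26924554 (fold 5.76), chr6:27100425-27100827 (6.38) and chr6:28303420-28303741 (6.93) were in siBAZ2A alone. The locus chr6:27440542-27440840 (fold 4.52) was in siBAZ2B alone, above only 9.46% of its list. All 5 were thus of middle or low rank, and their H3K4me3 peaks were 1186 to 1843 bp wide, above the segment's median. Every knockdown peak of the cluster counts as gained, 4 of 4 in siBAZ2A and 2 of 2 in siBAZ2B, because siControl had none. In the whole lists 39.9% of siBAZ2A and 44.0% of siBAZ2B peaks were gained, meaning that they had no base in common with a siControl peak. With so few peaks no change is read from these counts.

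The 5 strongest and the 5 widest H3K4me3 peaks of the histone cluster had no G4 peak in any condition, as had 121 of its 126 peaks. By fold they were chr6:26365307-26365858 (16.7), chr6:28323609-28324074 (14.3), chr6:28249061-28249933 (14.2), chr6:28366898-28367787 (14) and chr6:28192773-28193766 (13.7). The widest were chr6:27112980-27115393 (2414 bp), chr6:26204429-26206653 (2225 bp), chr6:26537337-26539500 (2164 bp), chr6:27860464-27862513 (2050 bp) and chr6:25279063-25280958 (1896 bp). The strong and the wide peaks were different ones, and the widest had folds of only 3.42 to 7.12. By windows of 500 kb, the most H3K4me3 peaks lay from 26 to 26.5 Mb (36) and from 27.5 to 28 Mb (29), and in both windows all 3 BG4 lists had 0 peaks.

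In the MHC, G4 peaks were sparse but present, with 14, 10 and 14 in siControl, siBAZ2A and siBAZ2B. They made up 0.420%, 0.235% and 0.288% of these lists, which differ in length (3332, 4257 and 4865 peaks). The share of the 111 MHC H3K4me3 peaks with a BG4 peak was 12.6% in siControl (7.66 to 20.1), 9.91% in siBAZ2A (5.62 to 16.9) and 11.7% in siBAZ2B (6.97 to 19). The siControl interval contains the 16.0% of the whole list, so no difference from it is read. The siBAZ2A and siBAZ2B intervals lie below the 21.1% and 23.4% found for the whole list. On the rest of chromosome 6 the shares were low as well, 7.82% in siControl (6.01 to 10.1), 11.4% in siBAZ2A (9.23 to 14.1) and 12.6% in siBAZ2B (10.3 to 15.4), and the lower shares are not particular to the MHC. The BG4 peaks sat on marked regions as elsewhere, 13 of 14 in siControl (92.9%, against 89.9% of the whole list), 10 of 10 in siBAZ2A (92.9% of the whole list) and 13 of 14 in siBAZ2B (90.4%). Their summits were a median of 135, 118 and 149 bp from the H3K4me3 summit. With the lists joined, 23 of the 111 marked regions carried BG4 (20.7%, 14.2 to 29.2), and this interval lies above that of the histone cluster.

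**Figure D3:**
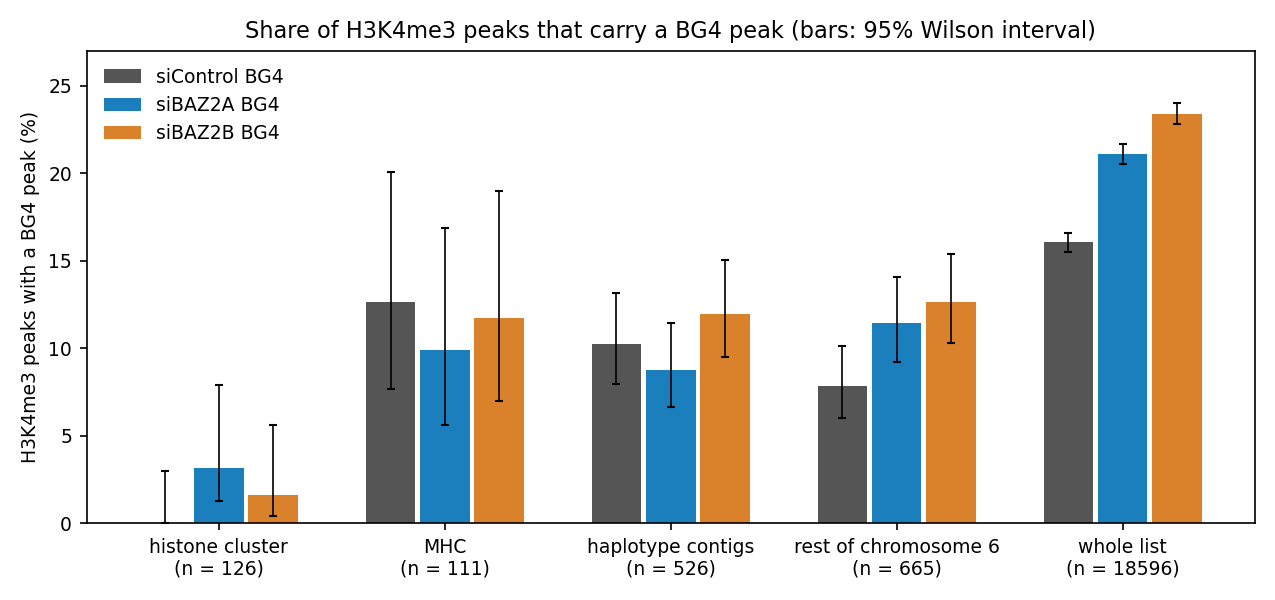
Share of H3K4me3 peaks that overlap a BG4 peak (y axis, percent) by segment (x axis, with the number of H3K4me3 peaks) and BG4 list (colours), with 95% Wilson intervals over peaks. The histone cluster stands at 0, 3.17 and 1.59% against 16.0, 21.1 and 23.4% of the whole list, and the other segments lie between.

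The 3 lists joined gave 23 MHC loci, of which 5 were in all lists. The strongest of them was chr6:33359086-33359723, with a fold of 9.68 in siControl, 11.1 in siBAZ2A and 7.78 in siBAZ2B, above 88.5%, 94.8% and 82.5% of those lists. It was followed by chr6:32163137-32164016, with folds of 7.89, 10.7 and 7.05 in the same order. The locus chr6:33385740-33386233 had folds of 7.05, 8.43 and 5.98. Folds were compared only within a list, and in each list these 3 kept this order. Weaker in siControl were chr6:32145153-32146396 (5.92, 5.61 and 5.94), which was the widest, 1244 bp, and lay over 2 H3K4me3 peaks, and chr6:31794834-31795697 (5.39, 8.15 and 5.25).

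A further 5 MHC loci were in 2 lists. The locus chr6:33377926-33378760 was strong in siControl (fold 8.48) and siBAZ2A (9.85) and had no siBAZ2B peak. Both knockdowns without siControl had chr6:30585144-30585563 (7.15 in siBAZ2A and 7.51 in siBAZ2B) and chr6:31633456-31633871 (5.74 and 4.67). The siControl and siBAZ2B lists shared chr6:31587896-31588681 (5.86 and 4.23) and chr6:30719937-30720555 (5.04 and 5.20). The last was the only one of the 23 loci off H3K4me3, and the nearest such peak was 7545 bp away.

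The other 13 MHC loci were in 1 list, and the 6 of siControl were all below the median fold of their list. The siControl list alone had 6, chr6:31125784-31126620 (fold 6.64), chr6:30524315-30524762 (5.82), chr6:28833738-28834060 (5.76), chr6:30614834-30615194 (4.93), chr6:31926826-31927181 (4.73) and chr6:33168069-33168547 (4.44). The siBAZ2B list alone had 5, chr6:33421940-33422381 (7.24), chr6:31620047-31620461 (6.64), chr6:30881807-30882331 (6.52), chr6:30875612-30876171 (5.10) and chr6:33393546-33393974 (4.88). The siBAZ2A list alone had chr6:33807973-33808292 (5.89) and chr6:30034630-30035127 (10.2). Within their own lists, the last was above 91.2% of siBAZ2A, and the first 3 named for siBAZ2B were above 74.2%, 60.8% and 58.3% of siBAZ2B. The siBAZ2A peak of fold 10.2 lay on 1 of the 5 strongest H3K4me3 peaks of the MHC, chr6:30034444-30035412 (fold 12.1).

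**Figure D4:**
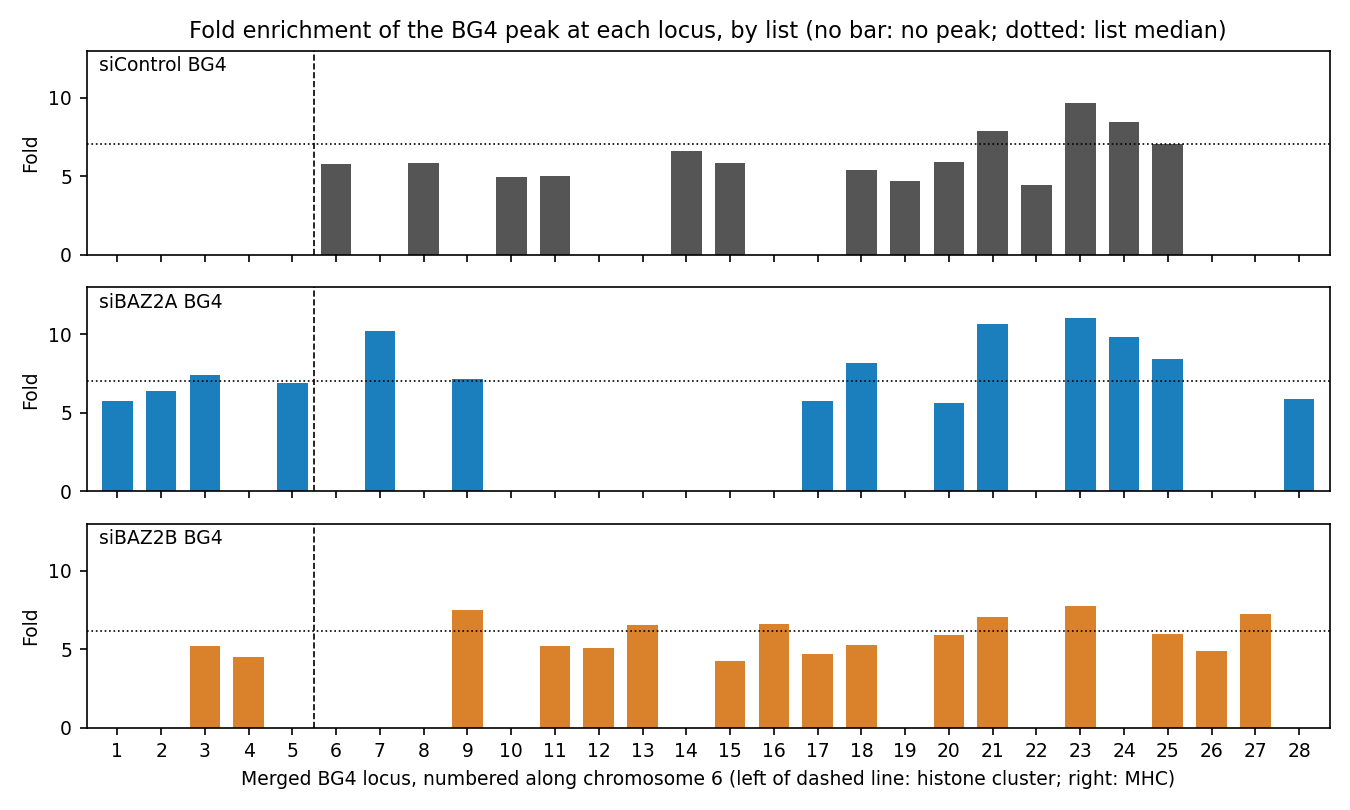
Fold enrichment (y axis) of the BG4 peak at each of 28 merged loci, numbered in chromosomal order (x axis), 1 panel per list, with the median of the whole list dotted. Loci 1 to 5 are in the histone cluster and have no siControl bar. Of the MHC loci, 5 have a bar in all 3 panels.

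Of the 5 strongest H3K4me3 peaks of the MHC 1 carried a BG4 peak, and of the 5 widest 2 did, too few to set apart from the 23 of 111 over the whole segment. By fold, chr6:30312869-30313373 (13.1), chr6:31670473-31671274 (13.0), chr6:33546843-33548111 (11.6) and chr6:31774169-31774822 (11.5) had no BG4 peak in any list. Of the 5 widest, chr6:30710014-30712392 (2379 bp), chr6:33588309-33590412 (2104 bp) and chr6:33265876-33267638 (1763 bp) had none either. The remaining 2, chr6:30523623-30525403 (1781 bp) and chr6:33167617-33169342 (1726 bp), carried a BG4 peak in siControl alone. The longest H3K4me3 gap of the MHC was 678 kb, and the window from 29 to 29.5 Mb held no peak of any list.

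Among deposited peaks, the share of siControl peaks missing from the knockdown lists was higher in the MHC than in the whole list. With stricter peaks, of which siControl kept 7 in the MHC, this was not detectable there. Lost peaks, siControl peaks with no base in a knockdown peak, were 8 of 14 in siBAZ2A (57.1%, 32.6 to 78.6) against 23.4% of the whole siControl list. In siBAZ2B they were 7 of 14 (50.0%, 26.8 to 73.2) against 18.6%. On the contigs the lost shares were 43.9% in siBAZ2A (25 of 57, 31.8 to 56.7) and 38.6% in siBAZ2B (22 of 57, 27.1 to 51.6). On the rest of chromosome 6 they were 33.8% (22 of 65, 23.5 to 46) and 26 of 65 (29 to 52.1). All 6 intervals lay above the share of the whole list, that of siBAZ2A on the rest of chromosome 6 only just. The contig intervals count copies of a stretch as separate peaks and may be too narrow. A high lost share was thus found along the chromosome as well as in the MHC. With only peaks of a −log10 q of at least 5, the lost MHC peaks were 2 of 7 in siBAZ2A (28.6%, 8.22 to 64.1) against 22.7% of the whole list at that threshold. In siBAZ2B they were 3 of 7 (42.9%, 15.8 to 75) against 20.9%. Both MHC intervals are wide and contain the share of the whole list. On the rest of chromosome 6 the lost peaks at that threshold were 17 of 49 in siBAZ2A (34.7%, 22.9 to 48.7). In siBAZ2B they were 22 of 49 there (44.9%, 31.9 to 58.7). These 2 intervals still lay above the share of the whole list, that of siBAZ2A only just. The siBAZ2A and siBAZ2B comparisons share the siControl list. The siControl peaks of the MHC were weak, with a median fold of 5.84 against 7.05 of the whole list, and the part of this in their loss was not tested. The siControl peak at chr6:33377926-33378760 counted as lost in siBAZ2B. Loci at the matching spacing on qbl_hap6 and ssto_hap7 had siBAZ2B folds of 9.17 and 6.39. How many other lost peaks had such a counterpart was not counted. The placement of reads among copies is unknown, so lost shares of the MHC and contigs are not read as loss after knockdown.

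Gained shares of the MHC and the contigs could not be told from those of the whole lists. In siBAZ2A, 4 of 10 MHC peaks (16.8 to 68.7) and 18 of 50 contig peaks (36%, 24.1 to 49.9) were gained. In siBAZ2B these were 7 of 14 (50.0%, 26.8 to 73.2) and 35 of 70 (50.0%, 38.6 to 61.4). All these intervals contain the 39.9% or 44.0% of the whole list. On the rest of chromosome 6 the gained share was 43 of 86 in siBAZ2A (39.7 to 60.3) and 60.8% in siBAZ2B (59 of 97, 50.9 to 69.9), the latter above the 44.0% of the whole list. The median fold of the MHC peaks was 8.29 in siBAZ2A, where the list had 7.01, and 5.96 in siBAZ2B, where the list had 6.17.

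The haplotype contigs carried several times as many peaks as the MHC of chromosome 6. They held 1.71% of the siControl BG4 list, 1.17% of siBAZ2A, 1.44% of siBAZ2B and 2.83% of the H3K4me3 list. Per contig, H3K4me3 peaks numbered from 47 (apd_hap1) to 92 (cox_hap2), and none reached the 111 of the chromosome. BG4 peaks per contig were 5 to 11 in siControl, 4 to 9 in siBAZ2A and 5 to 14 in siBAZ2B. The order of contigs differed between the lists. The contig cox_hap2 had 6 siControl peaks and 14 siBAZ2B peaks, mann_hap4 had 8, 4 and 10 in the order siControl, siBAZ2A and siBAZ2B, and apd_hap1 had 5 in each.

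Relative to marked regions the contigs were much like the MHC. A BG4 peak was on 10.3% of their H3K4me3 peaks in siControl (7.95 to 13.2), 8.75% in siBAZ2A (6.62 to 11.5) and 12% in siBAZ2B (9.47 to 15.0). Each share was below that of the whole list. The contig intervals count copies of a stretch as separate peaks and may be too narrow. No difference from the whole list is therefore read from them. Most of their BG4 peaks were on H3K4me3, 54 of 57 (94.7%), 46 of 50 (92.0%) and 63 of 70 (90.0%). With the lists joined, the share of H3K4me3 peaks with BG4 ran from 12.8% (apd_hap1) to 18.3% (mann_hap4) and was 16.7% over all contigs (13.8 to 20.2). By width, it was 11.2% in the narrowest 40% of the list, 22 of 110 in the middle 20% and 27.3% in the widest 40%, where the MHC had 10.8%, 43.5% (10 of 23) and 26.1% (6 of 23). The joined lists gave 98 contig loci. Of these, 28 were in all 3 lists (28.6%), as were 21.7% of the MHC loci and 37.4% of all 6206 loci of the series. All 28 were on H3K4me3, while 7 of the 47 loci in 1 list were not.

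**Figure D5:**
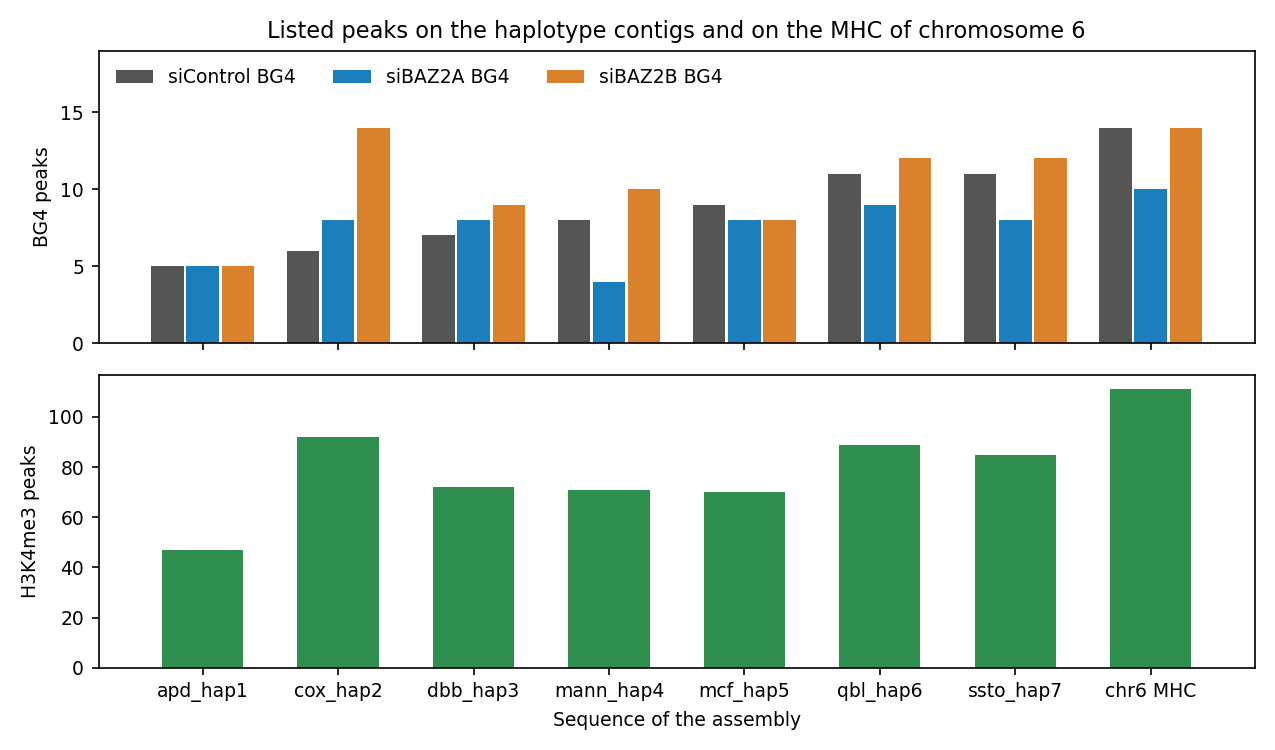
Number of listed BG4 peaks (upper panel, colours by list) and H3K4me3 peaks (lower panel) on each of the 7 haplotype contigs and on the MHC of chromosome 6 (x axis). H3K4me3 counts run from 47 to 111 and BG4 counts from 4 to 14.

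Some pairs of G4 loci recurred on the contigs at the spacing they had on chromosome 6. The loci chr6:32145153-32146396 and chr6:32163137-32164016 have midpoints 17.8 kb apart. A pair of loci with the same spacing, within 300 bp, was present on 6 of the 7 contigs, all but dbb_hap3, and all 12 contig loci of this pair were in all 3 lists. The first of the pair had folds of 7.69 to 8.33 in siControl, 7.21 to 8.95 in siBAZ2A and 7.34 to 8.49 in siBAZ2B over the 6 contigs. The second had 7.13 to 8.74, 10.5 to 11.5 and 7.71 to 8.90. In siBAZ2A the ranges of first and second do not overlap, and on chromosome 6 itself the siBAZ2A folds were 5.61 and 10.7. In siControl and siBAZ2B the ranges overlap.

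A second pair, chr6:33359086-33359723 and chr6:33377926-33378760, lies 18.9 kb apart and recurred on qbl_hap6 and ssto_hap7. The second locus of this pair, which had no siBAZ2B peak on chromosome 6, had siBAZ2B folds of 9.17 on qbl_hap6 and 6.39 on ssto_hap7. The siBAZ2B-only loci chr6:30875612-30876171 and chr6:30881807-30882331, 6.18 kb apart, recurred as siBAZ2B-only pairs on cox_hap2 and mann_hap4. The presence of a peak on chromosome 6 thus did not match its presence on the contigs in each case. The contig sequences were not compared with chromosome 6, so equal spacing is the only ground for setting these loci side by side.

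The contig BG4 peaks described singly are the 20 with the highest fold when the 3 lists are put together. Folds of different lists are not on a common scale, so neither the order across lists nor the make-up of the 20 by list is read. They were 16 siBAZ2A peaks and 4 siControl peaks at 16 loci, 11 of them in all 3 lists and 5 in 2, and all lay on H3K4me3. Within siControl, the strongest was mcf_hap5:4832829-4833398 (fold 11.8), above 96.6% of its list. The same locus had a fold of 11.0 in siBAZ2A, above 94.8% of that list, and of 7.75 in siBAZ2B, above 82.1%, and it carried the strongest H3K4me3 peak of its contig (14.7). The other 3 siControl peaks belonged to the 18.9 kb pair, on qbl_hap6 (9.68 and 9.29) and ssto_hap7 (9.56). Within siBAZ2A, the second locus of the 17.8 kb pair led, on mcf_hap5 (11.5), qbl_hap6 (11.2), apd_hap1 (11.1), cox_hap2 (11.1), mann_hap4 (10.6) and ssto_hap7 (10.5). The 18.9 kb pair was also among the siBAZ2A peaks, on ssto_hap7 (10.0 at its first locus) and qbl_hap6 (9.83 at both). The other siBAZ2A peaks were mcf_hap5:1416506-1417017 (10.3), qbl_hap6:1327609-1328073 (10.2), ssto_hap7:4252272-4252621 (9.94), apd_hap1:4108363-4108823 (9.75), cox_hap2:1546730-1547227 (9.57) and apd_hap1:1274879-1275358 (9.47). On the other 6 contigs the strongest H3K4me3 peak, with folds from 12.6 (ssto_hap7:1972365-1973186) to 15.9 (cox_hap2:1333627-1334328), had no BG4 peak. These were, besides, apd_hap1:1624519-1625008, dbb_hap3:1606560-1607110, mann_hap4:1661012-1661596 and qbl_hap6:1605775-1606290, with folds of 13.4, 13.7, 13.2 and 13.3.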

How the data were processed

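BG4 CUT&Tag in 3 siRNA conditions and H3K4me3 CUT&Tag in siControl A549 cells gave 16 libraries in 4 groups of 4. According to the submitters' processing notes, MACS2 2.1.4, bedtools, Picard, Bowtie2 2.4.5 and SAMtools 1.15.1 were used, with the human build hg19 and the fly build dm6. The sources used here give neither the use of the spike-in, nor a filter on mapping quality, nor the read depth. Per the labels, a peak was kept if at least 2 replicates had it, with the coordinates from the largest replicate. Each deposited list gives for every peak the fold enrichment (a ratio), the −log10 of its q-value, a score, and the summit, all by the authors' peak caller. The fold was compared only within a list, except that the 20 contig peaks to be named were picked by fold over the 3 BG4 lists together.

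Peaks were segmented by position, written 1-based, and any shared base counted as an overlap. Peaks sharing bases across the 3 BG4 lists were joined into loci. Shares carry 95% Wilson intervals over peaks or promoters, and a count of 0 the limit that 3 counts give. No p-value was computed, since the lists hold no values per replicate. Overlap counting was tested on simulated data. The named loci were all BG4 loci on chromosome 6, the 5 strongest and 5 widest H3K4me3 peaks per segment, the 20 strongest BG4 peaks on contigs and the strongest H3K4me3 peak of each contig. The members and lists were chosen with earlier results of these data known. The promoter motif, peak numbers per interval, intervals without BG4 and spacing of loci (300 bp tolerance, up to 25 kb) are descriptions, and all of them but the peak numbers were added after the peaks were seen. Promoters and gene order come from RefSeq tables of GRCh38.p14. An hg19 sequence and annotation were not used here, so the planned count of motifs in peaks and gene names for loci were left out. The results were recomputed with a −log10 q of at least 5, with stricter overlaps, the stronger 50% of H3K4me3 peaks, lists of equal length and a border at 29 Mb. The scripts ran in Python 3.11.15 with statsmodels 0.14.6, NumPy 2.4.6, pandas 2.3.3 and matplotlib 3.10.9.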

Additional observations from a re-analysis of the deposited data

How the results depend on the processing

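Of 105 values recomputed under an alternative, 77 stayed within the interval of the main share or within 1.5 times the main count. The siControl count of 0 in the histone cluster held under each peak alternative except that a border at 29 Mb brings 1 siControl peak into it. A −log10 q of at least 5 moved the most values, since it removes weak peaks. It left 7 siControl peaks in the MHC, and of siBAZ2B 0 in the histone cluster, 8 in the MHC and 35 on the contigs. The share of H3K4me3 peaks with BG4 then became 7.48% (MHC) and 7.11% (contigs) in siControl and 0% (histone cluster) and 6.72% (contigs) in siBAZ2B. Lost peaks became 2 of 7 (MHC) and 12 of 39 (contigs) in siBAZ2A and 3 of 7 and 13 of 39 in siBAZ2B, and gained siBAZ2B peaks became 0 (histone cluster), 4 (MHC) and 9 (contigs). These 4 lost shares have intervals that contain the share of the whole list at that threshold, 22.7% in siBAZ2A and 20.9% in siBAZ2B. The share of BG4 peaks on H3K4me3 rose to 100% in the MHC for siControl and siBAZ2B, and to 97.6% (siBAZ2A) and 97.1% (siBAZ2B) on the contigs. With lists of equal length, siBAZ2B gained 0 of 0, 4 of 8 and 16 of 46 peaks in the histone cluster, MHC and contigs. With the stronger 50% of H3K4me3 peaks, the contig shares with BG4 were 14.6% in siControl, 13.1% in siBAZ2A and 18.0% in siBAZ2B. With loops of up to 12 bases, an alternative added after seeing the data, the motif was in 37.8% of all promoters, 43.3% from HLA-F to HLA-DPB1 and 4 of 54 histone promoters (7.41%). At least 50% of the BG4 peak inside the H3K4me3 peak moved none of 17 values, and a reciprocal overlap of at least 50% none of 12. No paired analysis was possible because the 4 replicates of a group share 1 list, which also means that none could be omitted. Depth is unknown, so a marked region without a BG4 peak may be below detection.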
